A study of Mus spretus with 19 samples.

Results

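In pooled livers of wild Algerian mice, Mus spretus, 10 genes of bile acid synthesis, transport and control were followed across 5 sampling sites. They were Cyp7a1, Cyp8b1, Cyp27a1, Slc10a1, Slco1b2, Abcb11, Abcc2, Ostb, Nr1h4 and Nr0b2, chosen by symbol among the gene names of the array, with no measured value in the rule. All 10 were on the array, with 11 probes between them, and all passed the filter on dim probes, among 16356 genes tested. The livers came from male mice caught at the Santa Olalla lagoon (SOL), which the labels call unpolluted, and at 4 sites labelled polluted: the phosphogypsum stacks (PS), which hold fertilizer waste, and the lower (DR1), medium (DR4) and upper (DR6) course of the Domingo Rubio stream. Each site gave 1 RNA pool of 9 livers, hybridized to 4 one-colour arrays, of which 3 were analysed for DR6. The mice were wild, with no treatment, age or genotype in the labels, so a site is represented by 1 pool only and the spread between mice was not measured. The p-values therefore reflect only the technical spread of repeated labelling, and each site had its own slide and scan, so site and slide cannot be told apart.

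Bile acids are made from cholesterol in hepatocytes. In the classical pathway Cyp7a1 carries out the first and rate-limiting step and Cyp8b1 adds the hydroxyl group that gives cholic acid, while Cyp27a1 oxidizes the side chain and starts the alternative pathway. Slc10a1 (the sodium-taurocholate cotransporter) and Slco1b2 take bile acids up from the blood, Abcb11 (the bile salt export pump) and Abcc2 export bile salts and conjugates into bile, and Ostb is a subunit of the basolateral exporter OST. The bile acid receptor FXR, encoded by Nr1h4, induces the repressor SHP, encoded by Nr0b2, and both belong to the feedback that limits Cyp7a1 and Cyp8b1.

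The probes are 60 bases long and were designed for Mus musculus, so a base that differs in Mus spretus can lower a signal. Whether such bases differ between the mice of the sites was not tested. The first 30 bases of the probes on which the results turn are shown 5′ to 3′ in the strand of the transcript, with the position of the whole probe in the mm8 mouse build as the files annotate it. No part is marked by capitals, and the probes were not mapped to positions within their transcripts.
Cyp7a1, brighter probe, chr4:6193456-6193515, minus strand: ttgtttttaaaacaagttttatgactccct
Cyp7a1, second probe, chr4:6195632-6196238, minus strand: atgcacttggatcctgaaatctacccagac
Cyp8b1, chr9:121764175-121764234, minus strand: aaacctggaaaaagacggcataagctgttg
Slc10a1, chr12:81879331-81879390, minus strand: cctacaaaggcattatgttatcactcgtca
Ostb, chr9:65210904-65210963, minus strand: tgcatcttgatgactccataatgaaagaga
Nr0b2, chr4:132825855-132825914, plus strand: agtatacttaagaagatcctgctagaggaa
The second Cyp7a1 probe spans 607 bases of the genome with its 60 bases, so its match to the genome is split by bases that the probe does not contain. The other 10 probes each lie in 1 unbroken stretch. Of the 3 forward reading frames of the whole probe, 0 were free of a stop codon in the brighter Cyp7a1 probe and 1 in the second. Cyp27a1 lies at chr1:74668836-74668895 (plus strand), Abcb11 at chr2:69039172-69039231 (minus), Abcc2 at chr19:43890900-43890959 (plus), Nr1h4 at chr10:88884353-88884412 (minus) and Slco1b2 at chr6:141648361-141648420 (plus).

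Values are log2 signals relative to each array's 75th percentile, so a level of 0 equals that percentile, and differences between sites are in log2 units with the standard error (SE) of limma. Levels of different genes are not compared, since each probe has its own response. A gene was called when its Benjamini-Hochberg adjusted p over all genes tested was under 0.05 and the difference was at least 1, that is 2-fold. Every member spot was well above background on all 19 arrays and none was saturated. Arrays differed in brightness, with a 75th percentile of the signal from 99.5 to 285.2, and 52.0% to 61.5% of their gene spots were well above background. The hepatocyte markers Alb1, Ttr, Apoa1 and others of the list were measured for 16 genes, all well above background at every site. Of these, 1 was called lower at PS, 1 higher at DR4 and none at DR1 or DR6. Of all genes, 4.43% were called at PS, 6.1% at DR1, 10.5% at DR4 and 6.95% at DR6. Each array had 38 to 148 saturated gene spots, and whether the brightest of these markers were among them was not examined. A saturated spot cannot show a difference, so the few calls do not show that hepatocyte signal was equal. In pooled tissue, fewer cells of a type and less RNA per cell cannot be told apart.

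Against SOL, the classical enzyme Cyp8b1 was called higher at PS, DR4 and DR6, the uptake carrier Slc10a1 was called lower at DR4 and the exporter subunit Ostb was called lower at DR6. Nr0b2 was called higher at PS, a call that rested on 1 spot in a dim area of a SOL array. In all, 4 of the 10 genes were called in at least 1 of these comparisons, against 17.3% of all genes. At PS, 2 of the 10 genes were called, both higher, where 4.43% of all genes tested were called and 2.24% were called higher. At DR1 none of the 10 was called, against 6.1% of all genes, and 8 of them passed the adjusted p alone, as did 47.7% of all genes. At DR4, 1 was called higher and 1 lower, against 10.5% of all genes (5.43% higher and 5.1% lower). At DR6, 1 was called higher and 1 lower, against 6.95% of all genes (4.67% higher and 2.28% lower). Without the minimum size, 6 of the 10 passed the adjusted p of limma at PS, 9 at DR4 and 6 at DR6, where 32.8%, 54.9% and 43.9% of all genes did. The median difference of the 10 genes was 0.21 at PS, -0.07 at DR1, -0.27 at DR4 and 0.19 at DR6, beside -0.01, 0.01, -0.05 and 0.00 for all genes. The arrays did not overlap those of SOL for 7 of the 10 genes at PS, 7 at DR1, 9 at DR4 and 6 at DR6, where 36.7%, 35.6%, 52.2% and 46.4% of all genes with a value on every array did not. For Cyp7a1 and Cyp8b1 this held in the same direction at all 4 sites, as for 8.14% of those genes. The 4 comparisons share the SOL arrays.

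**Figure D1:**
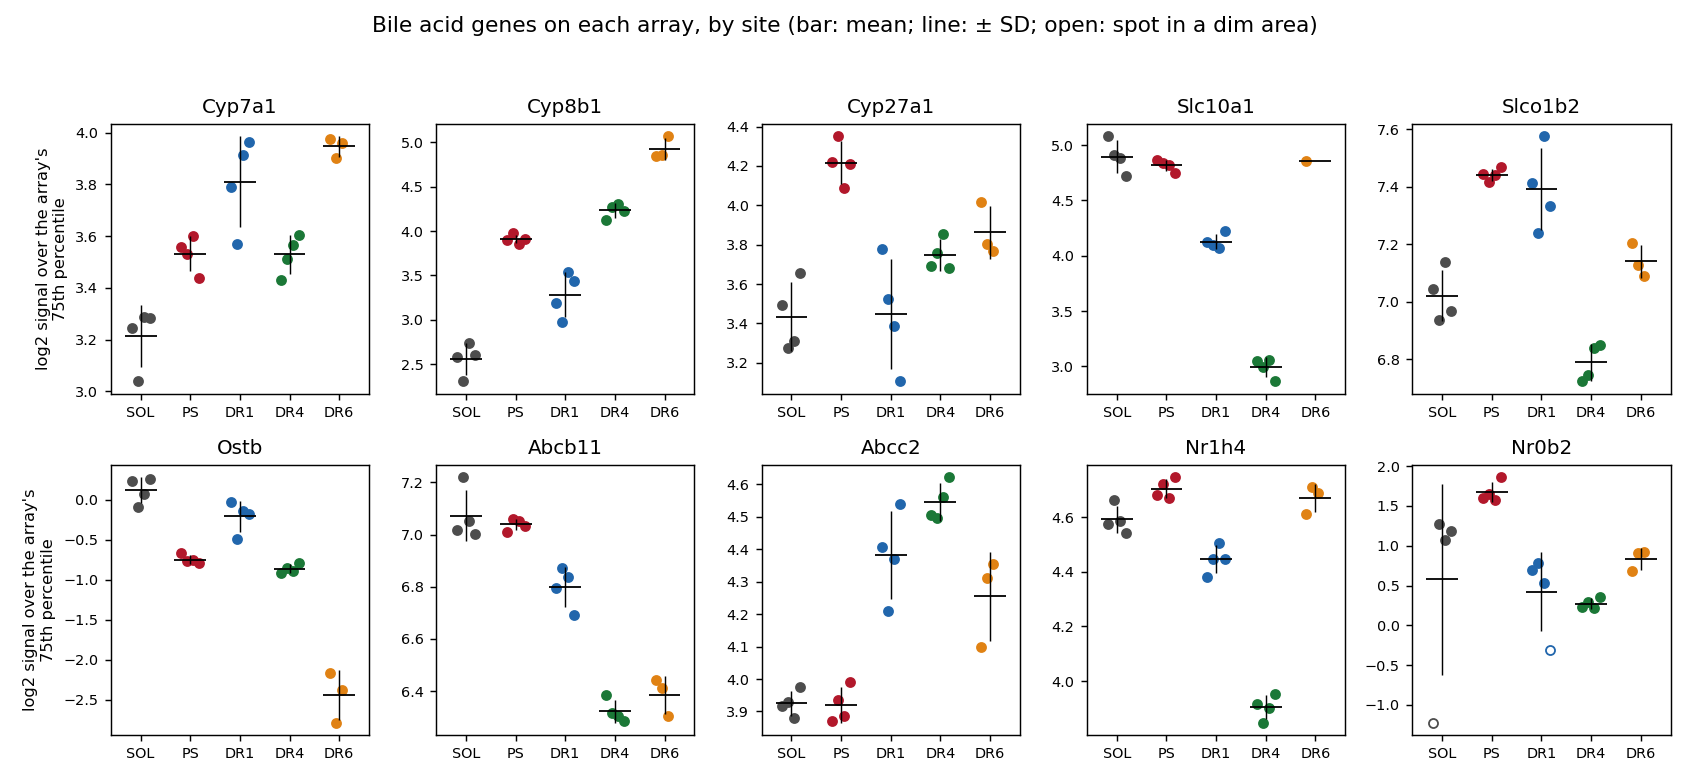
Log2 signal of the 10 bile acid genes relative to the 75th percentile of the array (vertical axes, each gene on its own scale) at SOL, PS, DR1, DR4 and DR6 (horizontal axis). Each point is 1 array, the bar the mean and the line ± SD. Open points are spots in a dim area of the array, found for Nr0b2 alone. Cyp8b1 has its highest arrays at DR6, Slc10a1 its lowest at DR4 and Ostb its lowest at DR6.

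Cyp8b1, the sterol 12-alpha-hydroxylase, gave the most graded pattern of the 3 enzymes. The SOL arrays read 2.58, 2.31, 2.74 and 2.60, the lowest level of this gene at any site. The PS arrays read 3.90, 3.98, 3.86 and 3.91, the DR1 arrays 3.19, 2.97, 3.54 and 3.43, the DR4 arrays 4.12, 4.27, 4.31 and 4.23, and the DR6 arrays 4.85, 4.86 and 5.07. No array of a polluted site overlapped SOL, and no 2 neighbours in the order DR6, DR4, PS, DR1, SOL overlapped. The difference from SOL was 1.36 ± 0.11 at PS (2.56-fold, limma adjusted p = 5.94e-08), 1.68 ± 0.11 at DR4 (3.20-fold, adjusted p = 1.32e-09) and 2.37 ± 0.12 at DR6 (5.18-fold, adjusted p = 1.2e-10), with n = 4 arrays a site and 3 at DR6. At DR1 it was 0.73 ± 0.11, or 1.66-fold (adjusted p = 4.17e-05), which is under the minimum size of a call.

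Every step in that order passed the adjusted p of limma. DR6 stood 0.70 ± 0.12 above DR4 (adjusted p = 0.000156), DR4 0.32 ± 0.11 above PS (0.0213), PS 0.63 ± 0.11 above DR1 (0.000176), and DR1 0.73 above SOL. Between the polluted sites Cyp8b1 was called higher at DR6 than at DR1, by 1.64 ± 0.12, and at DR6 than at PS, by 1.02 ± 0.12. The second of these lies close to the minimum size. Between DR6 and PS, 2 of the 10 genes were called, but 1 with the arrays scaled to their median or by quantiles and 0 after normexp background correction.

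Cyp7a1, the cholesterol 7-alpha-hydroxylase, was also higher at all 4 polluted sites, by less. Its brighter probe read 3.25, 3.04, 3.29 and 3.29 at SOL, 3.56, 3.53, 3.60 and 3.44 at PS, and 3.79, 3.57, 3.92 and 3.96 at DR1. It read 3.43, 3.51, 3.57 and 3.61 at DR4 and 3.98, 3.90 and 3.96 at DR6. All arrays of the polluted sites lay above all SOL arrays. The differences were 0.32 ± 0.08 at PS (1.25-fold, limma adjusted p = 0.00558), 0.60 ± 0.08 at DR1 (1.51-fold, adjusted p = 1.29e-05), 0.31 ± 0.08 at DR4 (1.24-fold, adjusted p = 0.00313) and 0.73 ± 0.09 at DR6 (1.66-fold, adjusted p = 3.83e-06). None reached 2-fold.

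The second Cyp7a1 probe was also lowest at SOL and highest at DR6. It read 0.59, 0.72, 0.78 and 0.70 at SOL, 0.99 to 1.12 at PS, 0.99 to 1.21 at DR1, 1.01 to 1.16 at DR4, and 1.86, 1.78 and 1.73 at DR6, so that PS, DR1 and DR4 formed 1 overlapping group between SOL and DR6. Its difference from SOL was 0.36 ± 0.06 at PS, 0.41 ± 0.06 at DR1, 0.39 ± 0.06 at DR4 and 1.09 ± 0.07 at DR6 (2.13-fold). The DR6 value passed the limits of a call on this probe (limma adjusted p = 1.55e-09, over all probes kept) and did not on the brighter one. DR6 and DR1 differed by 0.68 ± 0.07 on the second probe (adjusted p = 4.54e-07) and by 0.14 ± 0.09 on the brighter one, where the adjusted p was 0.207. Over the 19 arrays, which share 5 pools, the probes correlated at Pearson r = 0.78 and Spearman rho = 0.66, as a description.

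**Figure D2:**
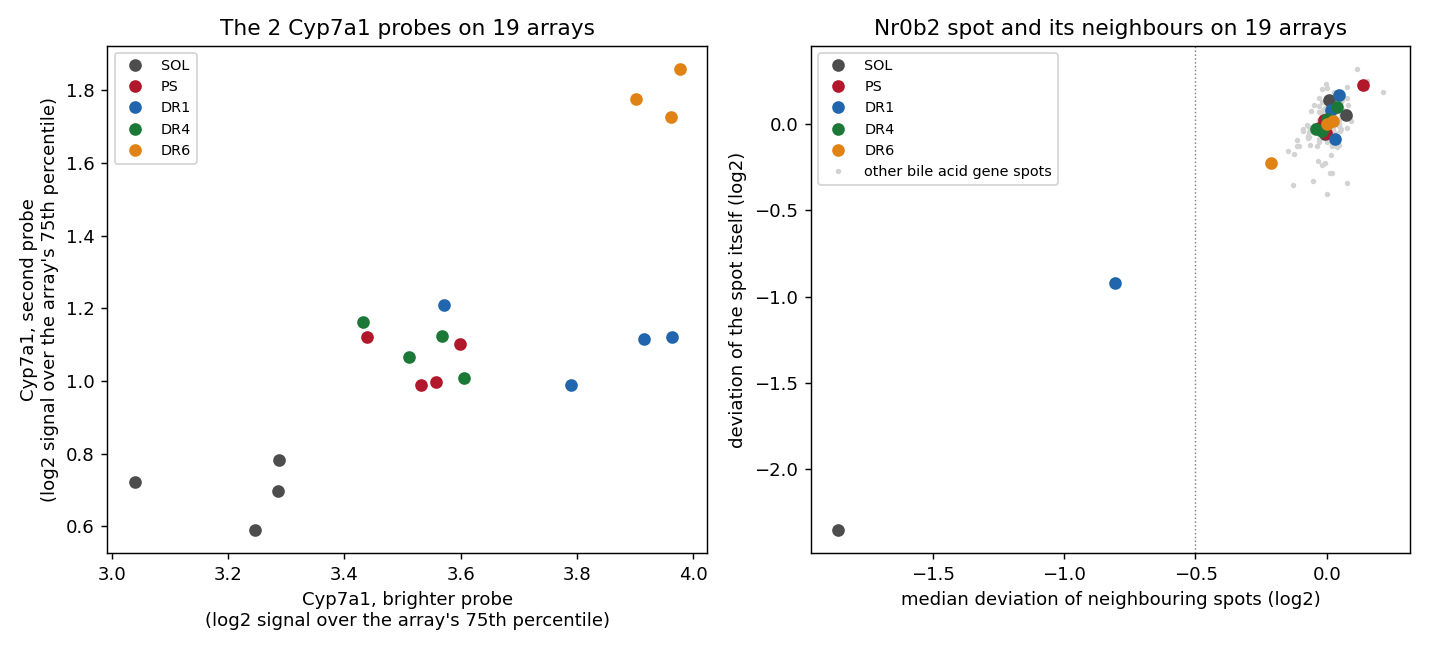
Left, log2 signal of the second Cyp7a1 probe against the brighter one, 1 point an array, both relative to the 75th percentile of the array: the 3 DR6 arrays stand apart on the vertical axis, while DR1 and DR6 overlap on the horizontal one. Right, deviation of the Nr0b2 spot from the median of its site against the median deviation of its neighbouring spots on the same array, in log2 units, with the other member spots in grey and the limit of -0.5 dotted: SOL replicate 1 and DR1 replicate 4 lie far below 0 on both axes.

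Cyp27a1, the mitochondrial sterol 27-hydroxylase, had its highest level at PS. It read 4.22, 4.35, 4.09 and 4.21 there against 3.49, 3.28, 3.31 and 3.65 at SOL, with no overlap. The difference was 0.78 ± 0.12 (1.72-fold, limma adjusted p = 7.81e-05). At DR1 the arrays ranged from 3.11 to 3.78 and overlapped SOL, with a difference of 0.02 ± 0.12 (adjusted p = 0.93). DR4 and DR6 stood 0.31 ± 0.12 (adjusted p = 0.0343) and 0.43 ± 0.13 (adjusted p = 0.0127) above SOL. Below PS, the neighbours DR6, DR4, DR1 and SOL overlapped and no step between them passed the adjusted p, of which the lowest was 0.0515.

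The enzymes therefore differed from SOL by unequal amounts on the same arrays. With the brighter Cyp7a1 probe, the Cyp8b1 minus Cyp7a1 signal of an array stood above its SOL mean by 1.04 at PS, 1.36 at DR4 and 1.64 at DR6, and by 0.13 at DR1. Its spread within a site was 0.06 to 0.12 (SD, n = 4, or 3 at DR6). Such a difference within an array does not depend on how arrays were scaled to each other. The Cyp8b1 minus Cyp7a1 signal was given as a description, with no test. It depends on the Cyp7a1 probe. The second probe differed from SOL by 1.09 at DR6 and 0.41 at DR1, where the brighter one differed by 0.73 and 0.60. The rise from DR4 to DR6 and the small value at DR1 therefore hold for the brighter probe only.

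Slc10a1, the main sodium-dependent carrier for conjugated bile acids on the blood side of hepatocytes, was lowest at DR4. It read 5.08, 4.91, 4.88 and 4.72 at SOL, 4.86, 4.84, 4.82 and 4.75 at PS, 4.12, 4.09, 4.07 and 4.22 at DR1, and 3.05, 3.00, 3.06 and 2.87 at DR4. SOL and PS overlapped, DR1 lay below both, and DR4 lay below DR1 with no overlap. The difference from SOL was -1.90 ± 0.07 at DR4, which is 3.74-fold lower (limma adjusted p = 1.35e-11), -0.77 ± 0.07 at DR1, which is 1.71-fold lower (adjusted p = 7.12e-07), and -0.08 ± 0.07 at PS (adjusted p = 0.428).

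At DR6 the scanner software marked the Slc10a1 spot as an outlier on 2 of the 3 arrays, so the DR6 level rests on 1 array, at 4.85. Its difference from SOL was -0.04 ± 0.11 (limma adjusted p = 0.781). With the marked spots kept, which was chosen after the data were seen, the 3 arrays read 4.85, 4.62 and 4.70 and the difference was -0.17 ± 0.08 (adjusted p = 0.0915). DR6 stood 1.86 ± 0.11 above DR4, or 1.73 ± 0.08 with those spots kept, and was called higher either way.

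Slco1b2, a sodium-independent uptake carrier of the same membrane, varied less. It ranged from 6.94 to 7.14 at SOL, from 7.42 to 7.47 at PS, from 7.24 to 7.58 at DR1, from 6.72 to 6.85 at DR4 and from 7.09 to 7.20 at DR6. PS and DR1 lay above SOL by 0.42 ± 0.07 and 0.37 ± 0.07 (limma adjusted p = 0.000119 and 0.000241), and DR4 lay below it by 0.23, a difference of -0.23 ± 0.07 (adjusted p = 0.00719). DR6 overlapped SOL, at 0.12 ± 0.07 (adjusted p = 0.199). DR4 was the lowest site for both uptake carriers.

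Abcb11, the canalicular pump for bile salts, was lower at DR4 and DR6. It ranged from 7.003 to 7.219 at SOL, from 7.01 to 7.06 at PS, from 6.69 to 6.87 at DR1, from 6.28 to 6.38 at DR4 and from 6.30 to 6.44 at DR6. DR4 and DR6 overlapped each other and lay below all other arrays. The difference from SOL was -0.75 ± 0.06 at DR4 (1.68-fold lower, limma adjusted p = 8.05e-09), -0.69 ± 0.06 at DR6 (1.61-fold lower, adjusted p = 1.55e-07) and -0.27 ± 0.06 at DR1 (adjusted p = 0.000811). PS overlapped SOL, at -0.03 ± 0.06 (adjusted p = 0.685).

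Abcc2, the canalicular exporter of conjugates, was higher at the 3 stream sites. It ranged from 3.88 to 3.97 at SOL and from 3.87 to 3.99 at PS, which overlapped (difference 0.00 ± 0.07, limma adjusted p = 0.975). The stream arrays ranged from 4.10 to 4.62 and lay above both. The difference from SOL was 0.46 ± 0.07 at DR1 (adjusted p = 4.53e-05), 0.62 ± 0.07 at DR4 (1.54-fold, adjusted p = 9.89e-07) and 0.33 ± 0.08 at DR6 (adjusted p = 0.002). The Abcb11 minus Abcc2 signal of an array stood below its SOL mean at the stream sites, by values of -0.73 at DR1, -1.37 at DR4 and -1.02 at DR6, and at PS the value was -0.03.

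Ostb (now named Slc51b), the beta subunit of the heteromeric exporter on the blood side, had the largest difference of the 10 genes with the scaling used here. It read 0.23, -0.08, 0.08 and 0.26 at SOL and -2.17, -2.79 and -2.38 at DR6. The PS arrays read -0.67 to -0.79, the DR1 arrays -0.02 to -0.48 and the DR4 arrays -0.79 to -0.92. DR6 lay below every other array, PS and DR4 lay below SOL and DR1, and DR1 overlapped SOL. The difference from SOL was -2.57 ± 0.13 at DR6, or 5.92-fold lower (limma adjusted p = 1.02e-10), -0.98 ± 0.12 at DR4 (1.98-fold lower, adjusted p = 2.05e-06), -0.87 ± 0.12 at PS (1.82-fold lower, adjusted p = 2.33e-05) and -0.33 ± 0.12 at DR1 (adjusted p = 0.0304). The DR4 value lies at the edge of a call and passed it without SOL replicate 2, at -1.05. The DR6 spots were dim, with intensities of 30.8, 18.8 and 27.5. Over the alternatives run, the DR6 difference of Ostb from SOL ranged from -2.70 to -1.34 and that of Cyp8b1 from 2.16 to 2.43. Ostb therefore did not have the largest difference under every alternative.

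DR6 was also called lower than each other polluted site for Ostb, by -1.70 ± 0.13 against PS, -2.24 ± 0.13 against DR1 and -1.58 ± 0.13 against DR4. Under the other background correction tried (normexp, with quantile scaling), the differences from PS and DR4 were -0.81 ± 0.08 and -0.70 ± 0.08 and fell short of the minimum size, so those calls were lost. Ostb is strongly expressed in ileum, and the pools held signal of gut epithelium. Of 10 gut markers tested, 3 were called higher and none lower at DR6 against SOL, where 6.95% of all genes were called. At PS, DR1 and DR4, 3, 3 and 5 were called lower, where 4.43%, 6.1% and 10.5% of all genes were called in either direction. The 3 called higher at DR6 were Cdx2, a gut transcription factor, and Defa1 and Defcr6, defensins of Paneth cells. Cdx2 was well above background on the 3 DR6 arrays and on no other, so it was tested only because of its DR6 level, and its call is no support for a difference. Defa1 stood at -2.73 at SOL and -0.60 at DR6, and Defcr6 at -3.28 and -1.03. Both were also among the markers called lower at PS, DR1 and DR4. They were well above background on 4 SOL and 3 DR6 arrays and on 0 arrays of PS and DR4. At DR1 the count was 2 for Defa1 and 0 for Defcr6. Both passed the filter only through SOL and DR6, where they were high, so their lower calls are no support for a difference. The uncalled markers went both ways. Fabp2, Vil1, Enpep, Apoa4 and Mep1a had lower site means at DR6 than at SOL, while Alpi and Lgals4 had higher ones. Fabp2 stood at 5.91 at SOL and 4.98 at DR6, and Enpep at 0.99 and 0.55. The markers therefore did not show gut signal as a whole to be higher at DR6. The summed signal of the 10 markers, in multiples of the 75th percentile, ranged from 120.3 to 144.4 at SOL, 82.7 to 87.5 at PS, 76.5 to 97.1 at DR1, 50.8 to 55.5 at DR4 and 97.6 to 101.6 at DR6. Most of that sum came from Fabp2 and Apoa4, which liver also expresses, with site means of 4.39 to 5.91 and 4.79 to 6.01. Of the 10, 1 was not well above background on any SOL array, and 3, 2, 3 and 0 were not on any array of PS, DR1, DR4 and DR6. The part of gut signal in the Ostb values was not tested.

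**Figure D3:**
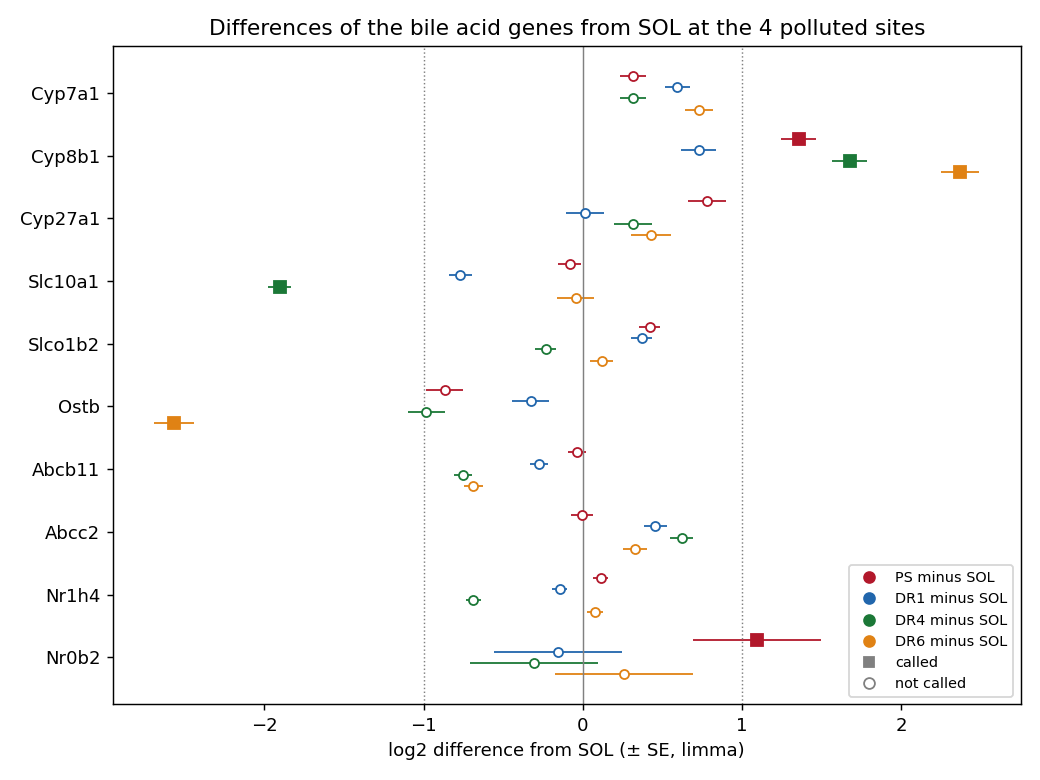
Difference of each bile acid gene from SOL (horizontal axis, log2 units, bars ± SE of limma) at PS, DR1, DR4 and DR6. Filled squares are called and dotted lines mark a 2-fold difference. Cyp8b1 is called at 3 sites and Slc10a1, Ostb and Nr0b2 at 1 each. The wide bars of Nr0b2 come with the 2 spots in dim areas.

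Nr1h4, which encodes the receptor FXR, was lowest at DR4. It ranged from 4.54 to 4.66 at SOL, 4.67 to 4.74 at PS, 4.38 to 4.51 at DR1, 3.85 to 3.95 at DR4 and 4.61 to 4.71 at DR6. DR4 lay below every other array. The difference from SOL was -0.69 ± 0.05 at DR4 (1.61-fold lower, limma adjusted p = 1.9e-09) and -0.15 ± 0.05 at DR1 (adjusted p = 0.0161). PS and DR6 did not pass the adjusted p, at 0.11 ± 0.05 (0.0744) and 0.08 ± 0.05 (0.224).

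Nr0b2, which encodes SHP, had 1 array that set its comparison with SOL. It read -1.22, 1.27, 1.08 and 1.19 at SOL, 1.61, 1.65, 1.58 and 1.86 at PS, 0.70, 0.78, 0.53 and -0.31 at DR1, 0.23, 0.29, 0.22 and 0.36 at DR4, and 0.68, 0.91 and 0.92 at DR6. SOL replicate 1 and DR1 replicate 4 stood far below the other arrays of their sites. As deposited, the difference from SOL was 1.10 ± 0.40 at PS (2.14-fold, limma adjusted p = 0.046), and -0.15, -0.30 and 0.26 at DR1, DR4 and DR6, with an SE of 0.40 or 0.43 and adjusted p from 0.546 to 0.78.

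Both low spots lay where the whole neighbourhood on the array was dim. On SOL replicate 1 the Nr0b2 spot stood -2.35 from the median of its site, and its 44 neighbours within 8 rows and 4 columns stood -1.86 from theirs in the median. On DR1 replicate 4 the values were -0.92 for the spot and -0.81 for 65 neighbours. Areas dimmer by more than 0.5 held 2178 gene spots on SOL replicate 1 (5.02% of the array) and 1306 on DR1 replicate 4 (3.01%), and none on the other 17 arrays. No other member spot lay in one.

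With the spots of these areas set missing, which was decided after the data were seen, Nr0b2 had n = 3 arrays at SOL, DR1 and DR6 and n = 4 at PS and DR4. It stood at 1.18 ± 0.10 (SD) at SOL, 1.67 ± 0.13 at PS, 0.67 ± 0.13 at DR1, 0.27 ± 0.07 at DR4 and 0.84 ± 0.14 at DR6. PS then lay above SOL by 0.50 ± 0.09 (1.41-fold, limma adjusted p = 0.00048), which is no call. The 3 stream sites lay below SOL, by -0.51 ± 0.09 at DR1 (adjusted p = 0.000402), -0.90 ± 0.09 at DR4 (1.87-fold lower, adjusted p = 4.74e-07) and -0.34 ± 0.09 at DR6 (adjusted p = 0.00867), so the direction at DR6 turned. Nr0b2 was called lower than at PS at DR1 (-1.01 ± 0.09) and at DR4 (-1.40 ± 0.08). With these spots missing, 1 of the 10 genes was called at PS, where 708 of all genes were, and the counts of the 10 genes at DR1, DR4 and DR6 stayed at 0, 2 and 2.

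Among the polluted sites, 1 of the 10 genes was called between DR1 and PS (6.37% of all genes), 2 between DR4 and PS (8.96%), 2 between DR6 and PS (7.32%), 1 between DR4 and DR1 (5.15%), 2 between DR6 and DR1 (7.5%) and 2 between DR6 and DR4 (6.16%). Slc10a1 was called lower at DR4 than at PS (-1.82 ± 0.07) and than at DR1 (-1.13 ± 0.07). Under normexp with quantile scaling the difference from DR1 was -0.98 ± 0.08, and that call was lost. Cyp8b1 between DR6 and PS (1.02) lost its call under median scaling (0.85), quantile scaling (0.98) and normexp (0.92). The calls between DR6 and the other 3 sites fell on Cyp8b1, Ostb and Slc10a1 only.

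A second fit took the 5 pool means as units and set the 4 polluted pools against SOL, with the assumption that a further SOL pool would spread as the polluted ones do. Limma called none of 16353 genes in it (0%), and 665 had an unadjusted p under 0.05. Cyp8b1 was among these, at 1.53 ± 0.57 (unadjusted p = 0.0335, adjusted p = 0.998). Cyp7a1, Cyp8b1 and Cyp27a1 were higher at 4 of 4 polluted sites, and Slc10a1, Abcb11 and Ostb lower at 4 of 4, with differences near 0 among them for Cyp27a1 at DR1, Abcb11 at PS and Slc10a1 at PS and DR6. The adjusted p was 0.998 for each of the 10 genes.

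Of 17 other enzymes of bile acid synthesis tested, 3 were called higher at DR1 and 2 at DR4, none was called lower, and none was called at PS or DR6. The 3 at DR1 include Ch25h, which passed the filter only through the stream sites. The shares of all genes called were 6.1% at DR1, 10.5% at DR4, 4.43% at PS and 6.95% at DR6, and differences between sites in the count of these enzymes were not tested. The list's median difference ran from -0.11 to 0.10 over the 4 sites. Cyp7b1, the oxysterol 7-alpha-hydroxylase of the alternative pathway, stood at 6.04 ± 0.08 (SD, n = 3) at SOL, 7.32 ± 0.12 (n = 4) at DR1 and 7.56 ± 0.07 (n = 4) at DR4. It was called higher at both, by 1.29 ± 0.07 (SE) and 1.52 ± 0.07 (limma adjusted p = 1.13e-08 and 7.19e-10), and its DR6 value of 0.66 ± 0.11 rests on 1 array.

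Akr1d1, the steroid 5-beta-reductase, was called higher at DR1 by 1.20 ± 0.08 and stood at -0.24 ± 0.08 at DR6 (limma adjusted p = 0.024). Amacr, the racemase of side-chain shortening, was called higher at DR4 by 1.21 ± 0.06 and was 0.87 ± 0.06 above SOL at DR1. Ch25h, cholesterol 25-hydroxylase, was called higher at DR1, but no SOL array was well above background, so that its level at DR1 was at least 1.75-fold higher. The bound of a dim gene sets the brighter site's mean against the lowest signal well above background on each array. Ch25h was well above background on 1 PS array and on 4, 4 and 3 arrays of DR1, DR4 and DR6. It was tested only because of its level at the stream sites, so its call is no support for a difference. Scp2 and Slc27a2, the brightest uncalled genes of the list, differed by -0.45 to 0.00.

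**Figure D4:**
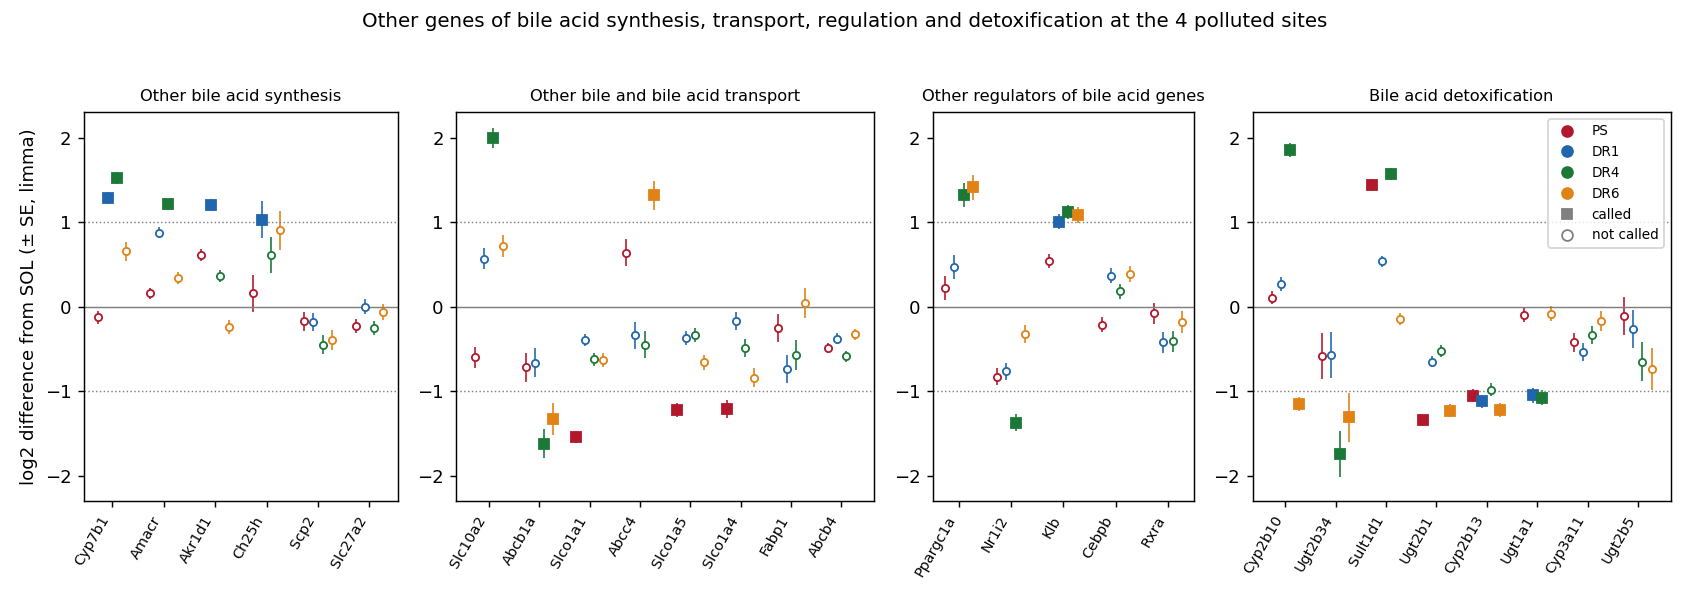
Difference from SOL (vertical axes, log2 units, bars ± SE of limma) of other genes of the pathway at PS, DR1, DR4 and DR6, in 4 panels for synthesis, transport, regulation and detoxification. Filled squares are called and dotted lines mark a 2-fold difference. Slc10a2 reaches 1.99 at DR4, and Klb is called at the 3 stream sites.

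Other transporters of bile and bile acids were called in both directions. Of 18 tested, 3 were lower at PS, 1 at DR1, 1 at DR4 and 1 at DR6, and 1 each was higher at DR4 and DR6. The shares of all genes called in either direction were 4.43% at PS, 6.1% at DR1, 10.5% at DR4 and 6.95% at DR6. Slc10a2, the apical sodium-bile acid cotransporter of ileum and bile ducts, stood at -2.85 ± 0.17 (SD, n = 4) at SOL and -0.86 ± 0.18 (n = 4) at DR4. It was called higher at DR4, by 1.99 ± 0.12 (SE; 3.98-fold, limma adjusted p = 5.69e-10), at the site where Slc10a1 was lowest. It stood 0.57 ± 0.12 and 0.71 ± 0.13 above SOL at DR1 and DR6 and at -0.60 ± 0.12 at PS. Of 14 bile duct markers, 1 was called higher (Cftr) and 1 lower (Tff2) at DR4, with a summed signal of 27.1 to 28.3 there and 30.3 to 33.4 at SOL. Most of that sum came from Aqp1 and Spp1, at 3.74 and 2.94 at DR4 and 3.70 and 3.22 at SOL. The uncalled markers went both ways, with Sox9 and Krt19 higher and Pkhd1 and Slc4a2 lower at DR4. The sum therefore does not show bile duct signal as a whole to be lower at DR4. Its part in the Slc10a2 values was not tested.

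The uptake carriers Slco1a1, Slco1a5 and Slco1a4 were called lower at PS, by -1.54 ± 0.07, -1.23 ± 0.08 and -1.22 ± 0.11, and were not called at the stream sites, where they stood between -0.84 and -0.17. Whether the probes separate these close relatives was not tested. Abcb1a, a multidrug exporter, was called lower at DR4 (-1.62 ± 0.17) and DR6 (-1.33 ± 0.19). Abcc4, a basolateral exporter, was called higher at DR6 by 1.32 ± 0.17, or 1.13 ± 0.13 with the dim areas missing. Abcb4, the phospholipid transporter of bile, was lower at every polluted site by -0.33 to -0.59, with adjusted p of limma at most 0.000891. Fabp1, the fatty acid binding protein, was saturated on every SOL array. Its scaled signal read 8.77 at SOL and 8.03 at DR1, where the arrays were brighter. Saturation of its DR1 spots was not examined, so no size is given for that difference.

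Of 19 other regulators tested, 1 was called higher at DR1, 2 at DR4 and 2 at DR6, and 1 was called lower, at DR4. Of all genes, 4.43% were called at PS, 6.1% at DR1, 10.5% at DR4 and 6.95% at DR6. Klb, the co-receptor through which the ileal hormone FGF15 acts on hepatocytes, stood 1.01 ± 0.08 above SOL at DR1, 1.11 ± 0.08 at DR4 and 1.08 ± 0.09 at DR6 and was called at all 3. At PS it was 0.54 ± 0.08 above SOL (limma adjusted p = 9.05e-05). Ppargc1a, a coactivator of hepatic nuclear receptors, was called higher at DR4 (1.32 ± 0.14) and DR6 (1.41 ± 0.15). Nr1i2, which encodes the xenobiotic and bile acid sensor PXR, was called lower at DR4, by -1.38 ± 0.10, and stood at -0.83 ± 0.10 at PS and -0.76 ± 0.10 at DR1. The brightest uncalled genes were Cebpb and Rxra, between -0.42 and 0.38.

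The detoxification list held 9 tested genes of hydroxylation, sulfation and glucuronidation. At PS 1 was called higher and 2 lower, at DR1 2 lower, at DR4 2 higher and 2 lower, and at DR6 4 lower. Of all genes, 4.43% were called at PS, 6.1% at DR1, 10.5% at DR4 and 6.95% at DR6, of which 2.28% lower. Cyp2b10 was called higher at DR4 by 1.85 ± 0.08 and lower at DR6 by -1.15 ± 0.09. Sult1d1, a sulfotransferase, was called higher at PS (1.44 ± 0.07) and DR4 (1.57 ± 0.07). Ugt1a1, which glucuronidates bilirubin, was called lower at DR1 (-1.05 ± 0.09) and DR4 (-1.08 ± 0.09), and Cyp2b13 at PS, DR1 and DR6 (-1.05 to -1.23). At DR4 Cyp2b13 stood at 2.54, beside 2.47 at PS and 3.52 at SOL, just short of a call. Ugt2b1 was called lower at PS and DR6, and Ugt2b34 at DR4 and DR6. The brightest uncalled members were Cyp3a11 and Ugt2b5, between -0.74 and -0.11.

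In 1 or more of the 10 pairs of sites, 4 of the 10 bile acid genes were called, against 24.3% of all genes. For each of them, the genes with the most similar course were sought by Pearson r over the arrays, among 2734 genes with a symbol, a value on every array and a range of site means of at least 1. The arrays share 5 pools, so these values describe the order of 5 sites. Slc10a1 was followed most closely by Usp2 (r = 0.991), G0s2 (0.986) and Itpka (0.984) over the 17 arrays with a Slc10a1 value. Like Slc10a1, these stood lowest at DR4, at -2.19 ± 0.06, -2.24 ± 0.09 and -1.92 ± 0.06 from SOL, all called by limma. Cyp8b1 was followed by Prkcz (0.946) and Marveld3 (0.942), which stood 1.19 and 1.73 above SOL at DR6. Ostb was followed by St3gal4 (0.974), Steap4 (0.961) and Tmsb10 (0.961), which stood at -1.04, -1.32 and -1.26 at DR6.

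Many genes of this pathway follow the time of day in mouse liver, and the hours at which the mice were killed were not used here. Of 16 clock genes tested against SOL, 2 were called higher and 1 lower at PS, 2 and 1 at DR1, 3 and 4 at DR4, and 5 and 0 at DR6. With the dim areas missing, these were 1 and 2 at PS and 0 and 1 at DR1, and as before at DR4 and DR6. Their part in the values of Cyp8b1, Cyp7a1 and Slc10a1 was not tested. The exocrine pancreas markers also moved with the sites: all 14 were called lower at PS and at DR4 and 3 at DR1, and none was called at DR6, where their summed signal was 1838 to 1875 beside 1539 to 1724 at SOL. Macrophage markers were called lower for 0, 1, 3 and 1 of 12 genes at PS, DR1, DR4 and DR6. Of 12 pericentral hepatocyte markers, 1 was higher at DR1, 2 were lower at DR4 and 1 was lower at DR6, and of 11 periportal ones 2 were higher at DR4. Beside these counts of clock and marker genes, 4.43% of all genes were called at PS, 6.1% at DR1, 10.5% at DR4 and 6.95% at DR6. The part of these lists in the members' values was not tested.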

How the data were processed

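Per the submitters' processing notes, the scans were read with Agilent Feature Extraction 9.5.3.1. Each deposited file gives a spot's background-subtracted intensity on a linear scale, per the file headers, and flags of 0 or 1 as the other values used. The deposited series table holds the same intensity, differing by at most 0.497%. Gene names come from the newer design file (mm8). The 1639 control spots were left out, outlier spots were set missing, and log2 of the intensity minus each array's 75th percentile was used. A probe was kept if 3 or more arrays of a site had it well above background, and each gene took its brightest kept probe. Limma 3.58.1 in R 4.3.3 fitted 1 mean per site to 19 arrays, two-sided. Of 16356 genes, 343 lacked a value on some array. On simulated data with 16013 genes, it recovered 88% to 94% of differences of 1.3 and 96% to 99% of differences of 2. It also called 0 to 5 unchanged genes per comparison. The simulated noise was independent between genes and had only the spread within sites. It held no dim areas and no spread between pools, so these shares apply to technical spread alone.

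The bile acid genes, the gene lists and the rule for named genes were chosen with earlier results of these data known. The rule named every bile acid gene. From each other list of the pathway it named the called genes, at most the 6 with the largest difference, and the 2 brightest uncalled ones. For each called bile acid gene it named the 3 genes of highest correlation, of which 1 is not reported here. The alternatives were other scaling, background correction, filters, probe rules, single arrays left out, and dim areas set missing, the last added after the data were seen.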

Additional observations from a re-analysis of the deposited data

Results flagged for a closer look

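In 44 groups of 4 arrays, the highest or lowest array of a bile acid gene's probe was set against Dixon's limit, and 2 groups had an array beyond it. Chance puts about 1 in 20 groups beyond that limit. Nr0b2 at SOL replicate 1 read -1.2212, with a gap of 0.922 of the range of the group, and lies in the dim area of that array. Cyp7a1 at SOL replicate 2 read 3.039, with a gap of 0.835 of the range. The second Cyp7a1 probe read 0.72 on that array, inside the 0.59 to 0.78 of its group. Without SOL replicate 2 the brighter Cyp7a1 probe stood 0.26 above SOL at PS, 0.54 at DR1, 0.26 at DR4 and 0.67 at DR6.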

How the results depend on the processing

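The calls of Cyp8b1 at PS, DR4 and DR6, Slc10a1 at DR4 and Ostb at DR6 kept their direction and their side of the threshold under every alternative run. Of the 10 bile acid genes, 1 was called in PS minus SOL under quantile scaling, normexp with quantile scaling, no filter, dim areas set missing, or a fit of only the 2 sites, where Nr0b2 lost its call (differences 1.08, 0.85, 1.10, 0.50 and 1.10). In DR6 minus PS, 1 was called under median or quantile scaling and 0 under normexp. In DR4 minus DR1 the count was 2 under quantile scaling and 0 under normexp, and in DR6 minus DR4 it was 1 under normexp. Normexp with an offset of 50 called 197, 246, 599 and 275 of all genes at PS, DR1, DR4 and DR6, against 724, 997, 1722 and 1136. The share of higher calls at DR6 was 67.2%, and 55.8% under median scaling. Directions that turned were those of small differences. Under median scaling they were Slc10a1 at PS (0.0022), Abcb11 at PS (0.048), Abcc2 at PS (0.078) and Nr1h4 at DR6 (-0.00926). Under quantile scaling and normexp Cyp27a1 at DR1 was -0.025 and -0.096, and under normexp Nr1h4 at DR6 was -0.015. With dim areas missing, Nr0b2 at DR6 was -0.34. Their causes were not tested, apart from the dim areas. Some differences from SOL that passed the adjusted p of limma without a call did not pass it under every alternative. For Slco1b2 at DR4 the difference ranged from -0.26 to -0.06, with an adjusted p of up to 0.595. The highest adjusted p was 0.174 for Nr1h4 and 0.1 for Ostb at DR1, and 0.0995 and 0.0654 for Cyp27a1 at DR4 and DR6. For Abcc2 at DR6 it was 0.0536.

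With single arrays left out, 1 to 2 of the bile acid genes were called at PS, 0 at DR1, 2 to 3 at DR4 and 2 at DR6. In 14 of the 19 runs the count at PS was 1, since Nr0b2 lost its call, also where an array of DR4 or DR6 was left out. Nr0b2 at PS ranged from 0.50 to 1.33, at DR1 from -0.753 to 0.0904 and at DR6 from -0.34 to 0.49, with the lowest value of each without SOL replicate 1. Cyp27a1 at DR1 ranged from -0.0938 to 0.130, Abcb11 at PS from -0.0575 to 0.0145, Abcc2 at PS from -0.0278 to 0.0129 and Slc10a1 at DR6 from -0.104 to 0.0165. Ostb at DR4 ranged from -1.05 to -0.94 and was called without SOL replicate 2 or DR4 replicate 4. With the replicate block, 727, 999, 1730 and 1167 of all genes were called and the counts of bile acid genes stayed at 2, 0, 2 and 2. Deviations of same-numbered arrays from their site means correlated at -0.16 to 0.48 (median 0.088, 16 of 36 pairs over 0.1), and those of differently numbered arrays at -0.41 to 0.46 (median -0.034, 15 of 108 pairs over 0.1). Of 19 arrays, 11 correlated best with their own number, a hint from the data and not from the design. Since not every same-numbered pair was over 0.1, the fit without the block was kept. The number of arrays and 1 pool a site limit the precision.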

Other observations

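Over the arrays, Slc10a1 and Nr1h4 had the most similar course among pairs of the 10 genes (r = 0.963 over 17 arrays, 0.981 over the 5 site means), while Slc10a1 and Abcc2 ran opposite (r = -0.904 over the arrays, -0.841 over the site means). Ostb and Cyp8b1 ran opposite too (r = -0.884 over 19 arrays, -0.930 over the site means), so which pair was the more opposed changed with the averaging. These are descriptions, since the arrays share 5 pools and the points of a site are repeats.

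The genes most like Nr0b2 as deposited were Tspo, Apcs and Serf1 (r = 0.972, 0.962 and 0.937). Of the 20 most like it, 20 had their spot in the dim area of SOL replicate 1 and 17 in both dim areas, while 8.05% and 5.30% of the 2734 genes searched did. With the dim areas missing, the most like genes were Fhod3, Tspo and Lrg1 (r = 0.980, 0.967 and 0.962 over 17 arrays). Apcs and Serf1 were called higher at PS as deposited and not with the dim areas missing, at 0.63 and 0.92.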
